A study of Homo sapiens with 6 samples.

Results

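Centrosome, centriole and augmin genes were taken from the deposited table by name alone: every row whose symbol starts with CEP and a digit, HAUS and a digit, or TUBG, which includes TUBGCP. The rule found 51 of 16311 genes, of which 35 carry CEP names, 8 HAUS names and 8 TUBG names. By GENCODE release 29, 49 of them are protein-coding, and the remaining pair are CEP83-DT, a long non-coding RNA divergent from CEP83, and TUBG1P, a processed pseudogene of TUBG1. RNA was sequenced from LNCaP cells, a human prostate adenocarcinoma line that responds to androgen. FIR cells had received 40 Gy in all (3 libraries), and untreated cells of that line gave the other 3 libraries. The abbreviation FIR is not explained in the labels, but the title of the series speaks of radiation. Libraries are labelled BR1 to BR3 within each group, an abbreviation often used for biological replicates that the labels leave unexplained, and nothing else states that they came from separate cultures, so errors and p-values cover only library-to-library spread and that spread may be technical. The family was chosen with the FIR against untreated result in view. The values of its members are therefore given as a description, with calls from the fit over the whole table but no p-values.

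The centrosome is a pair of centrioles in a matrix of pericentriolar material and is the main site of microtubule growth in animal cells. Gamma-tubulin joins with the GCP proteins in a ring that templates new microtubules, and the augmin complex of HAUS proteins brings such rings to the sides of spindle microtubules, where new ones branch off. Centrioles are copied once per cell cycle under the kinase PLK4, and in non-dividing cells the older centriole docks at the membrane and carries a cilium. Many CEP proteins serve one of these steps, and others hold centrioles together or act at the end of cell division.

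Read totals over the listed genes were 15703483 to 16542096 in FIR libraries and 16805679 to 21004697 in untreated libraries, and 3 reads corresponded to 0.143 to 0.191 CPM, the scaled read count used throughout. All 12 prostate luminal markers had a row, with a summed level of 9298 to 10287 CPM in FIR libraries and 8734 to 9396 CPM in untreated libraries. KLK3, which encodes prostate-specific antigen, averaged 2282 ± 197 CPM in FIR cells and 2958 ± 163 CPM in untreated cells (SD, n = 3 each). Of the luminal markers 8 rose, 3 fell and 1 did not pass. Of 8 immune markers 0 had a row, of 8 fibroblast markers 3 and of 6 endothelial markers 1, with summed fibroblast levels of 8.01 to 12.8 CPM in FIR and 24.1 to 27.2 CPM in untreated libraries. The endothelial marker was VWF, at 5.08 to 6.22 CPM in FIR and 28.8 to 40.6 CPM in untreated libraries. Among the fibroblast markers COL1A1 fell, COL3A1 rose and PDGFRB did not pass. Their part in the results was not tested.

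Across the 51 genes, 24 fell, 7 rose and 20 did not pass an adjusted p of 0.05. The fit over the whole table called 23.4% of all genes lower and 25.4% higher. These are shares of each library's RNA, and in bulk samples fewer cells of a type and less RNA per cell cannot be told apart. The falls were led by CEP55, a protein of the final cut between daughter cells, by the augmin subunits HAUS8 and HAUS1, and by CEP152, the scaffold that brings PLK4 to the centriole. The rises were led by CEP85L, CEP350 and CEP250. At least 2-fold changes among called members numbered 11 lower and 3 higher, where 7.37% and 8.62% of all genes met the same rule. The median log2 fold change of FIR over untreated was -0.34 over the members and 0.01 over all genes tested. In 29 members every FIR library lay below every untreated library, and in 8 every one lay above, where 27.5% and 29.4% of all genes did so.

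**Figure D1:**
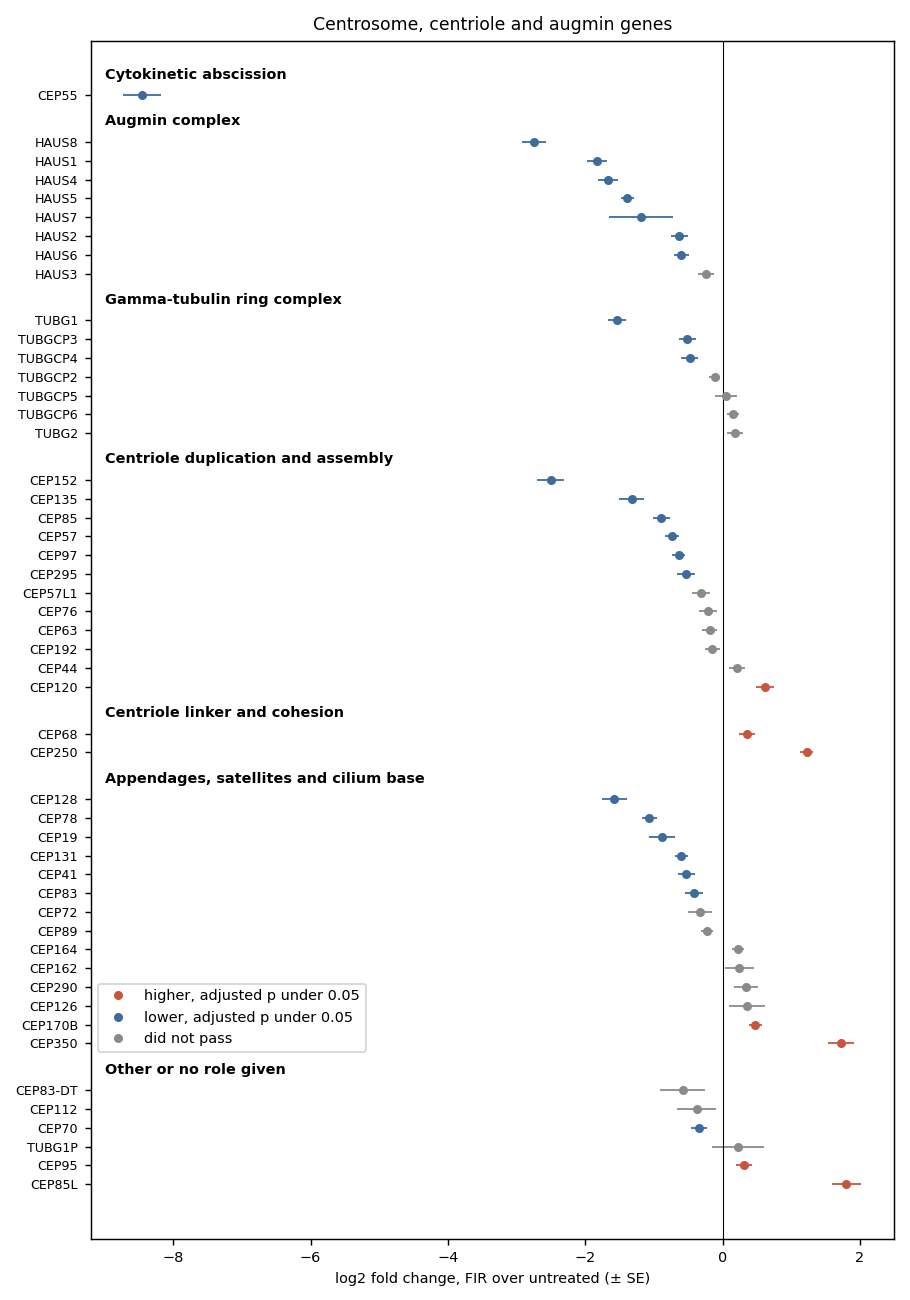
Log2 fold change of FIR over untreated cells (x axis, ± SE) for the members named in the text, grouped by role, with colour giving the call over all genes. CEP55 lies far to the left at -8.45, 7 of 8 augmin genes are lower, and the linker members CEP68 and CEP250 are higher. CEP55 and the augmin gene HAUS7 have deposited rows through their untreated levels.

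Of the deposited rows, each had at least 0.6 CPM in at least 3 libraries, so genes that were low in both groups are not among the 51. Of these, 49 reached that level in all 6 libraries. CEP55 and HAUS7 reached it in every untreated library but not in every FIR library, so their rows are included through their untreated levels. By that pattern alone their lowest FIR library lay below every untreated library, which favours a fall without fixing it. In all, 6 members averaged under 5 CPM: HAUS7, CEP112, CEP126, CEP162, CEP83-DT and TUBG1P. Of these 6, HAUS7 alone was called.

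The summed level of all members was 1671, 1500 and 1596 CPM in FIR libraries against 1803, 1736 and 1573 CPM in untreated libraries. The 2 groups overlapped in this sum. Without TUBG1 the sum averaged 1526 ± 81.5 CPM in FIR cells and 1522 ± 82.4 CPM in untreated cells (SD, n = 3 each). Near-equal sums do not mean unchanged members, since 24 of the 51 fell, TUBG1 among them, and 7 rose. Abundant members that rose stay in this sum: CEP170B (307 CPM in FIR against 221 in untreated cells), CEP250 (177 against 76.1) and CEP350 (91.3 against 27.6). Augmin genes summed to 104 ± 7.82 CPM in FIR cells and 207 ± 14.6 CPM in untreated cells, and CEP250 with CEP68 to 197 ± 13 and 91.5 ± 8.78 CPM.

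Promoter sequences were read from RefSeq (GRCh38.p14) for 45 of the 51 genes. The stretches below, of 150 bases from 120 before the start to 30 after it, are shown because these genes span the range of change: CEP55 and HAUS8 fell most, TUBG1 and TUBG2 are paralogs with different changes, and CEP350 rose. Capitals mark the CHR core (TTTGAA) and the CCAAT box, which are known from promoters of cell-cycle genes, and the E2F site (TTTCCCGC, TTTGGCGC, TTTCGCGC or TTTGCCGC), each on either strand. None of these motifs holds another. In order, the stretches lie at chr10:93496492-93496641 (plus strand), chr19:17075423-17075572 (minus strand), chr17:42609563-42609712, chr17:42659164-42659313 and chr1:179954690-179954839 (each plus strand).
CEP55: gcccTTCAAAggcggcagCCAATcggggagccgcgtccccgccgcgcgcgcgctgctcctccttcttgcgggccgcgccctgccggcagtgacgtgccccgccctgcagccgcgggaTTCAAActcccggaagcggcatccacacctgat
HAUS8: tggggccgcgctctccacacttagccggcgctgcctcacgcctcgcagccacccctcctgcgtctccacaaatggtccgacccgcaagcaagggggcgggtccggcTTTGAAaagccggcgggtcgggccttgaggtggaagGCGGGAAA
TUBG1: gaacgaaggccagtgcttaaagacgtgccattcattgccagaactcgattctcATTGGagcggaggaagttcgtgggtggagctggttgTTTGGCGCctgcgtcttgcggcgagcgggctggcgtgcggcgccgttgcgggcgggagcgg
TUBG2: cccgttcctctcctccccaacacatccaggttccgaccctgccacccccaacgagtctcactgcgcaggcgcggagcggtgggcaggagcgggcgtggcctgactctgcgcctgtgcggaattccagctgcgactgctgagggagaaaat
CEP350: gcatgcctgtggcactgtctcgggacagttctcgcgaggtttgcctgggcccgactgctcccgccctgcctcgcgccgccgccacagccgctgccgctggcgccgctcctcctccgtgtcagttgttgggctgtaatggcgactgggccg

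CEP55 held 2 CHR cores and 1 CCAAT box in this stretch, HAUS8 a CHR core and an E2F site, TUBG1 a CCAAT box and an E2F site, and TUBG2 and CEP350 none of these letters. TUBG2 has a CCAAT box further upstream, 194 bases before its start. HAUS8 has 2 listed starts 81 bases apart, and the first listed is shown. From 250 bases before to 50 after the other HAUS8 start, none of the 3 motifs was found. Over windows of 250 bases before to 50 after each start, the CHR core was in 16 of 57 member windows (28.1%) and in 15.2% of all 35116 windows. The CCAAT box was in 24 of the member windows (42.1%) and in 34.6% of all. The E2F site was in 10 (17.5%) and in 3.31% of all. All windows here means every listed start on the autosomes, X and Y, not only those of the genes tested. The members are all expressed genes, so the 2 sets of windows are not alike. Some genes have several, partly overlapping windows, 11 of the members among them. Counted by gene, the CHR core was in 6 of 22 members that fell, 2 of 5 that rose and 7 of 18 that did not pass. The E2F site was in 4 of 22, 1 of 5 and 4 of 18, and the CCAAT box in 12 of 22, 2 of 5 and 7 of 18. A match is a run of letters, not a bound site.

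CEP55 (ENSG00000138180.15, chromosome 10, 93496632 to 93529092, hg38) recruits the ESCRT machinery that severs the bridge between daughter cells. It had 2, 1 and 1 reads in the FIR libraries, against 695, 700 and 459 reads in the untreated libraries. The FIR libraries stood at or near the limit of detection while each untreated library held 459 reads or more. From the pooled reads of each group, scaled for depth, CEP55 was 382 times lower in FIR cells. The 95% counting interval of 149 to 1404 covers counting error only. The fit gave 350 times lower (log2 fold change -8.45). Other ratios given with a counting interval are also from pooled reads, and may differ somewhat from those of the fit.

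Of 21 measured partners of CEP55 in abscission, 8 fell, 6 rose and 7 did not pass. That is 38.1% lower and 28.6% higher, where all genes had 23.4% and 25.4%. All 7 genes of the contractile ring, spindle midzone and their kinases (ANLN, ECT2, RACGAP1, KIF20A, PRC1, AURKB and CIT) fell, with log2 fold changes of -7.60 to -2.21. Among 14 genes of the ESCRT-III machinery, its recruiters, the ATPases VPS4A and VPS4B and the severing enzyme SPAST, 1 fell, 6 rose and 7 did not pass. This division of the list was made after its values were seen and is a description only. KIF20A, AURKB and PRC1 were under 0.6 CPM in at least 1 FIR library, so their rows are in the table through their untreated levels. KIF20A, a midzone kinesin, had 14 reads over the FIR group and 3395 over the untreated group, 200 times lower with a 95% counting interval of 119 to 366. Its log2 fold change was -7.60 and, without FIR replicate 3, -8.77. AURKB, the kinase of the chromosomal passenger complex, had 15 reads against 2502, 137 times lower (83.2 to 246). TSG101 and PDCD6IP, the ESCRT proteins that bind CEP55, stood at 0.32 (SE 0.08), which passed, and 0.07 (SE 0.07), which did not. The 6 rises were 3 without untreated replicate 2 and 4 without FIR replicate 1 or 3.

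Augmin is built from 8 subunits, HAUS1 to HAUS8, and all 8 were measured. Of these, 7 fell, 0 rose and HAUS3 did not pass, where 23.4% of all genes fell and 25.4% rose. In each of the 8 the FIR libraries lay below the untreated libraries, as they did in 27.5% of all genes. HAUS7 is counted in the 7 and in the 8, but its row is included through its untreated level. Its call was lost in 5 of 14 alternatives. The size of the difference varied widely between subunits of the same complex, from a log2 fold change of -2.75 for HAUS8 to -0.24 for HAUS3.

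HAUS8, the subunit that binds the microtubule (chromosome 19, 17049729 to 17075625), stood at 2.63, 3.24 and 2.08 CPM in FIR libraries against 19.1, 18.4 and 15.8 CPM in untreated libraries. It was 6.72 times lower, with a log2 fold change of -2.75 (SE 0.18). HAUS1 had 6.91, 8.75 and 6.04 CPM in FIR libraries against 27.3, 24.7 and 25.0 CPM in untreated libraries, a log2 fold change of -1.83 (SE 0.14). In both genes every FIR library was below every untreated one.

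HAUS4 had 5.26, 5.38 and 4.59 CPM in FIR libraries against 15.0, 16.8 and 16.6 CPM in untreated libraries (log2 fold change -1.66, SE 0.15). HAUS5 had 15.8, 17.4 and 16.8 CPM against 46.9, 40.7 and 43.2 CPM (-1.39, SE 0.10). In both, the highest FIR library was far below the lowest untreated one. HAUS2 had a smaller difference of -0.63 (SE 0.12). HAUS6, a subunit that links augmin to gamma-tubulin rings, stood at -0.60 (SE 0.11). HAUS3 had 18.5, 19.8 and 18.2 CPM in FIR libraries against 23.1, 23.4 and 20.1 CPM in untreated libraries, at -0.24 (SE 0.11). It passed as lower in 2 of 14 alternatives, under library-size scaling and without untreated replicate 3.

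HAUS7 was the scarcest member per length (RPKM) in untreated cells. It had 9, 15 and 3 reads in FIR libraries against 21, 26 and 28 reads in untreated libraries. Its log2 fold change was -1.19 (SE 0.46), and the call was lost under DESeq2 with all 6 libraries, and without FIR replicate 1 or 3 or untreated replicate 2 or 3. Without FIR replicate 2 it stood at -1.79. Reads may also be shared with neighbouring genes: 35.6% of the exonic bases of HAUS7 lie in exons of TREX2 and 35.9% of those of HAUS4 in exons of 3 other genes. For HAUS2 the share is 16.5%, on the opposite strand, and for HAUS3 9.71%, with POLN.

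**Figure D2:**
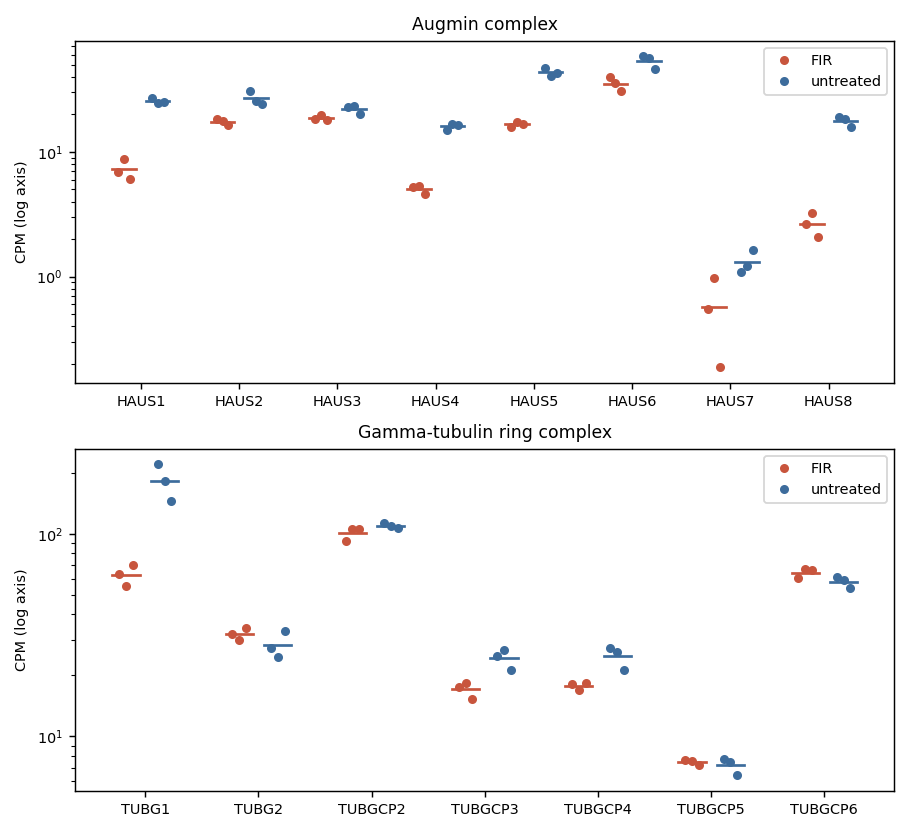
Level of each augmin subunit (top) and each gamma-tubulin ring gene (bottom) in every library, in CPM on a log axis, with FIR libraries left of untreated ones and bars at the mean of 3 libraries. The augmin groups are separate for every subunit, while in the ring TUBG1 stands apart with 55.1 to 70.2 CPM in FIR libraries against 145 to 220 CPM in untreated libraries. HAUS7 has a deposited row through its untreated level.

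Of 7 gamma-tubulin ring genes, 3 fell (TUBG1, TUBGCP3 and TUBGCP4), 0 rose and 4 did not pass. The shares over all genes were 23.4% lower and 25.4% higher. TUBG1, the main gamma-tubulin of dividing cells (chromosome 17, 42609683 to 42615238), had 63.4, 55.1 and 70.2 CPM in FIR libraries against 220, 181 and 145 CPM in untreated libraries. The highest FIR library was under the lowest untreated one by a factor of about 2. The log2 fold change was -1.53 (SE 0.13), 2.89 times lower. TUBG2, its paralog 44045 bases downstream on the same strand (42659284 to 42667006), had 31.9, 29.7 and 34.3 CPM in FIR libraries against 27.3, 24.7 and 33.1 CPM in untreated libraries. Those groups overlapped, at 0.18 (SE 0.12). Without untreated replicate 3 TUBG2 stood at 0.28 and passed.

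TUBG1 thus gave 66.5%, 65.0% and 67.1% of the reads of the gene pair in FIR libraries against 89.0%, 88.0% and 81.3% in untreated libraries. The widest 95% Wilson interval of these shares, that of FIR replicate 2, ran from 62.3% to 67.5%. Untreated replicate 3 was the lowest of its group, yet its share was above all FIR libraries. Some reads may be ambiguous between the paralogs: 18.2% of all 50-base words of the TUBG1 transcripts also occur in TUBG2, and 0.52% in the pseudogene TUBG1P. Whether such reads were exchanged or left out of the counts was not tested. TUBG1P had 0.86, 1.30 and 1.70 CPM in FIR libraries against 1.20, 1.35 and 0.70 CPM in untreated libraries.

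**Figure D3:**
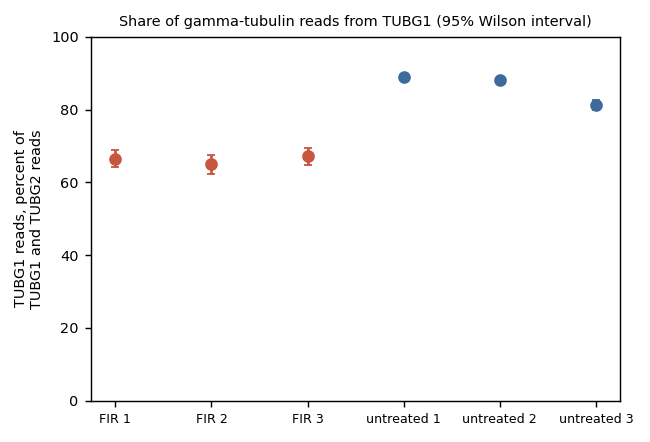
Reads of TUBG1 as a percent of the reads of TUBG1 and TUBG2 together in each library, with 95% Wilson intervals that cover counting error only. The FIR libraries lie at 65.0% to 67.1% and the untreated libraries at 81.3% to 89.0%.

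Among the GCP proteins that form the ring, TUBGCP2 and TUBGCP3 build the core with gamma-tubulin and TUBGCP4, TUBGCP5 and TUBGCP6 occupy further positions. TUBGCP3 had 17.6, 18.3 and 15.3 CPM in FIR libraries against 25.0, 26.7 and 21.2 CPM in untreated libraries (-0.51, SE 0.12). TUBGCP4 had 18.1, 16.8 and 18.4 CPM against 27.2, 26.0 and 21.1 CPM (-0.48, SE 0.12), and 33.4% of its exonic bases are overlapped by TP53BP1 on the opposite strand. Both were lower in each FIR library than in any untreated library. TUBGCP2, TUBGCP5 and TUBGCP6 did not pass, at -0.11 (SE 0.08), 0.05 (SE 0.16) and 0.15 (SE 0.08).

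Of 12 centriole duplication and assembly genes, 6 fell (CEP152, CEP135, CEP85, CEP57, CEP97 and CEP295), CEP120 rose and 5 did not pass. The shares over all genes were 23.4% lower and 25.4% higher. CEP152 had 39, 42 and 40 reads in FIR libraries, or 2.39, 2.72 and 2.52 CPM, against 15.4, 16.8 and 11 CPM in untreated libraries. It was 5.67 times lower, with a log2 fold change of -2.50 (SE 0.20). CEP63 and CEP192, which work with CEP152 in loading PLK4, did not pass, at -0.19 (SE 0.11) and -0.15 (SE 0.11). CEP192 stood at -0.28 and passed without untreated replicate 3.

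CEP135, a protein of the cartwheel from which a centriole grows, had 3.79, 3.82 and 3.71 CPM in FIR libraries against 10.6, 10.0 and 7.70 CPM in untreated libraries (-1.32, SE 0.18). CEP85, which acts with STIL in PLK4 activation, had 10.8, 12.1 and 11 CPM against 20.7, 21.7 and 20.5 CPM (-0.89, SE 0.12). For both genes the FIR values were tightly grouped and well below the untreated ones. CEP57, a pericentriolar protein that stabilises centriole engagement, had 27.5, 26.6 and 22.4 CPM against 45.8, 41.8 and 39.6 CPM (-0.73, SE 0.10). Its paralog CEP57L1 did not pass, at -0.31 (SE 0.13). CEP97, which caps growing centrioles with CCP110, and CEP295, needed for a new centriole to mature, fell by 0.64 (SE 0.10) and 0.54 (SE 0.13) on the log2 scale. CEP76 and CEP44 did not pass, at -0.21 (SE 0.13) and 0.20 (SE 0.12).

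CEP120, which promotes centriole elongation, went the other way. It had 27.8, 21.6 and 25.1 CPM in FIR libraries against 15.2, 18.3 and 14.9 CPM in untreated libraries, 1.54 times higher (log2 fold change 0.62, SE 0.13). The lowest FIR library was above the highest untreated one.

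Partners outside the naming rule in centriole duplication were mostly lower. Of 20 measured, 13 fell, 0 rose and 7 did not pass, where 23.4% of all genes fell and 25.4% rose. PLK4, the kinase that starts duplication, had 2.14, 2.40 and 1.07 CPM in FIR libraries against 23, 21.7 and 18.3 CPM in untreated libraries. Its log2 fold change was -3.49 (SE 0.22; adjusted p = 4.67e-09, edgeR's quasi-likelihood test with Benjamini-Hochberg adjustment). PLK4 was named for the size of its change in this same comparison, so its p-value is a description and no independent support. POC1A, a centriole wall protein, stood at -2.75 (SE 0.16), and STIL and SASS6, which build the cartwheel with PLK4, at -2.25 (SE 0.16) and -1.75 (SE 0.16). CETN2, a centrin of the distal centriole, did not pass at 0.01 (SE 0.09).

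Genes of the linker that ties the centriole pair together moved in both directions. The 2 that carry CEP names, CEP250 and CEP68, rose, while LRRC45 and CNTLN, which the naming rule does not take, fell. CEP250, also called C-Nap1 and the docking site of that linker (chromosome 20, 35455164 to 35519280), had 194, 168 and 170 CPM in FIR libraries against 82.6, 80.3 and 65.2 CPM in untreated libraries. It was 2.33 times higher, with a log2 fold change of 1.22 (SE 0.10) and no overlap. CEP68 had 18.0, 21.6 and 19.7 CPM in FIR libraries against 14.6, 15.6 and 16.2 CPM in untreated libraries (0.35, SE 0.12). Its call was lost in 5 of 14 alternatives, among them those without FIR replicate 2 or 3 or untreated replicate 1 or 2. LRRC45, a linker fibre protein, averaged 24.8 CPM in FIR cells and 64.4 CPM in untreated cells, at -1.38 (SE 0.13). CNTLN, which joins the fibre to CEP250, stood at -0.74 (SE 0.14), and CROCC, the rootletin that forms the fibre, did not pass at 0.03 (SE 0.11).

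In the list of other linker genes and mitotic centrosome regulators, 14 of 16 measured genes fell and 1, NUMA1, rose. The shares over all genes were 23.4% lower and 25.4% higher. Among those that fell, NEK2, ASPM, HMMR, KIF24 and BORA were under 0.6 CPM in at least 1 FIR library. The deposited rows therefore include them through their untreated levels. NEK2, the kinase that dissolves the linker before mitosis, had 6 reads over the FIR group against 2013 over the untreated group, 277 times lower with a counting interval of 127 to 755. ASPM, a spindle pole protein, had 11 against 1697 reads, 127 times lower (70.9 to 255). TPX2, a spindle assembly factor of mitosis, stood at -4.62 (SE 0.13), and PLK1 and AURKA, mitotic kinases that enlarge the centrosome, at -4.79 (SE 0.19) and -3.86 (SE 0.19). NUMA1, a spindle pole protein that is nuclear outside mitosis, stood at 0.32 (SE 0.07).

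The 15 members of the appendages, satellites and cilium base moved in both directions: 6 fell, 2 rose and 7 did not pass. That is 40% lower and 13.3% higher, where all genes had 23.4% and 25.4%. CEP128, a subdistal appendage protein, had 3.24, 3.69 and 3.90 CPM in FIR libraries against 11.2, 12.1 and 9.05 CPM in untreated libraries (-1.58, SE 0.18). CEP78, a centriolar protein linked to cone-rod dystrophy, had 24.1, 21.7 and 20.7 CPM against 49.6, 50.1 and 39.7 CPM (-1.07, SE 0.11). CEP19, a regulator of cilium formation, had 3.85, 3.76 and 3.21 CPM against 6.57, 6.04 and 7.35 CPM (-0.88, SE 0.19). In all 3 genes the groups were apart. CEP131, a satellite protein, CEP41, a Joubert syndrome gene, and CEP83, a distal appendage protein, stood at -0.60 (SE 0.09), -0.53 (SE 0.12) and -0.41 (SE 0.13). The call of CEP83 was lost without FIR replicate 3 or untreated replicate 1. Its divergent transcript CEP83-DT stood at -0.58 (SE 0.33) and did not pass, and did so at -0.95 without FIR replicate 2.

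CEP350, which anchors microtubules at the centriole (chromosome 1, 179954773 to 180114875), had 120, 60.8 and 92.7 CPM in FIR libraries against 27.2, 31.8 and 23.9 CPM in untreated libraries. FIR libraries differed among themselves by a factor near 2, and even the lowest was well above the untreated libraries. The log2 fold change was 1.72 (SE 0.18), 3.30 times higher. CEP170B, a paralog of the subdistal appendage protein CEP170, had 318, 268 and 336 CPM in FIR libraries against 246, 224 and 193 CPM in untreated libraries (0.48, SE 0.10). Distal appendage genes CEP164 and CEP89 did not pass, at 0.22 (SE 0.09) and -0.23 (SE 0.09), nor did the ciliary transition zone gene CEP290 at 0.34 (SE 0.17). CEP290 passed without FIR replicate 3 or untreated replicate 3, CEP164 without FIR replicate 2, and CEP89 in 6 of 14 alternatives, including those without FIR replicate 2 or untreated replicate 3. CEP162, CEP126 and CEP72 did not pass, at 0.24, 0.35 and -0.33. Without untreated replicate 3, CEP126 and CEP72 passed.

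Among 22 measured appendage and ciliary base partners, 12 fell, 3 rose and 7 did not pass, where 23.4% of all genes fell and 25.4% rose. DZIP1, which fell, was under 0.6 CPM in every FIR library, so its row was included through its untreated level. SCLT1 and FBF1, which sit in the distal appendages with CEP83 and CEP164, stood at -1.21 (SE 0.17) and -1.04 (SE 0.13). FGFR1OP and FOPNL, named CEP43 and CEP20 in later releases, were counted here and not as members, and both fell, at -0.37 (SE 0.15) and -0.85 (SE 0.20). TTBK2, the kinase that CEP164 recruits, BBS4 and CC2D2A rose, at 0.65 (SE 0.12), 0.90 (SE 0.08) and 0.90 (SE 0.12).

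Of the members without an assigned role, CEP85L changed most. CEP85L, a gene of neuronal migration mutated in lissencephaly (chromosome 6, 118460772 to 118710075), had 18.0, 11 and 11.3 CPM in FIR libraries against 4.23, 3.34 and 4.03 CPM in untreated libraries. It was 3.48 times higher (log2 fold change 1.80, SE 0.21), while its paralog CEP85 fell. CEP70 and CEP95 were called lower at -0.34 (SE 0.12) and higher at 0.31 (SE 0.12), and in both the groups overlapped. The call of CEP95 was lost in 9 of 14 alternatives, including those without FIR replicate 1 or 3 or untreated replicate 1 or 2. That of CEP70 was lost in 3, those without FIR replicate 2 or 3 or untreated replicate 2. CEP112 did not pass, at -0.38 (SE 0.28).

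Pericentriolar material partners were mixed, with 10 of 19 measured genes lower, 6 higher and 3 not passing. That is 52.6% lower and 31.6% higher, where all genes had 23.4% and 25.4%, so the share of rises was near that of all genes. TACC3, which stabilises spindle microtubules, had 24.8, 22.4 and 22.6 CPM in FIR libraries against 216, 196 and 154 CPM in untreated libraries (-3.02, SE 0.12; adjusted p = 2.79e-11, edgeR's quasi-likelihood test with Benjamini-Hochberg adjustment). TACC3 too was named for the size of its change in this comparison, so its p-value is a description only. NEDD1, which brings gamma-tubulin rings to centrosome and spindle, stood at -1.24 (SE 0.13). MZT1, a small ring subunit, fell, and the related MZT2A and MZT2B rose, at -0.75 (SE 0.10), 0.61 (SE 0.10) and 0.21 (SE 0.08). The scaffolds PCNT and CDK5RAP2 were slightly lower, at -0.22 (SE 0.08) and -0.40 (SE 0.09). LGALS3BP was the highest of the list at 2.37 (SE 0.13), and it is chiefly known as a secreted glycoprotein. The 6 rises were 3 without untreated replicate 3, and 4 without FIR replicate 2 or untreated replicate 1 or 2. With all 6 libraries they were 4 under DESeq2, under RLE or library-size scaling and under a filter of 1 CPM in 3 libraries.

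**Figure D4:**
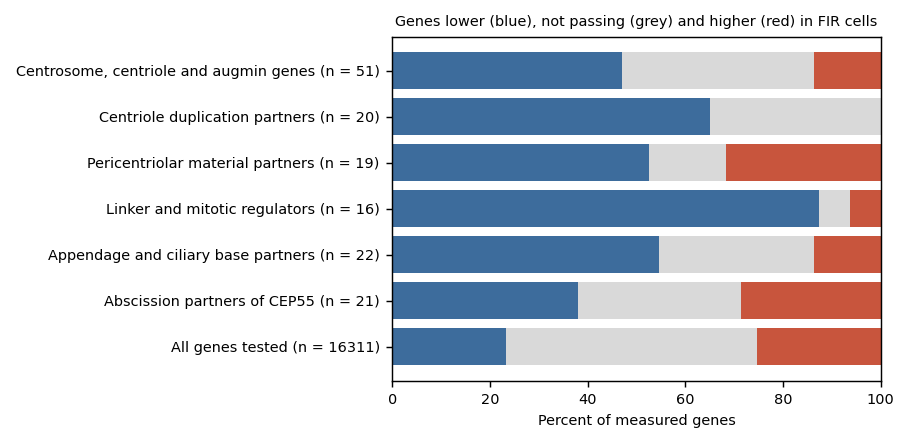
Percent of measured genes lower (blue), not passing (grey) and higher (red) in FIR cells for the members, 5 partner lists and all genes tested. Linker and mitotic regulators have 14 of 16 genes lower, centriole duplication partners 13 of 20 with 0 higher, and all genes tested 23.4% lower and 25.4% higher. In the linker list NEK2, ASPM, HMMR, KIF24 and BORA have deposited rows through their untreated levels.

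Levels between genes were compared per length, as RPKM (CPM divided by gene length in kilobases). TUBG1 was the most abundant member of untreated cells and ranked 2 in FIR cells, with 26.1 ± 3.13 RPKM in FIR cells and 75.6 ± 15.7 RPKM in untreated cells (SD, n = 3 each). CEP170B took rank 1 in FIR cells, with 42.6 ± 4.86 RPKM there and 30.6 ± 3.70 RPKM in untreated cells. TUBGCP2 ranked 3 in both, with 13.1 ± 0.96 and 14.2 ± 0.39 RPKM. In untreated cells, HAUS1, CEP131 and TUBG2 followed at 12.1 ± 0.65, 11.5 ± 0.68 and 10.2 ± 1.56 RPKM, neighbours whose ranges of mean ± SD overlap. In FIR cells TUBG2 and CEP250 took ranks 4 and 5, while HAUS1 stood at rank 18 and CEP55 at rank 51. CEP350 had rank 10 in FIR cells and rank 37 in untreated cells.

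**Figure D5:**
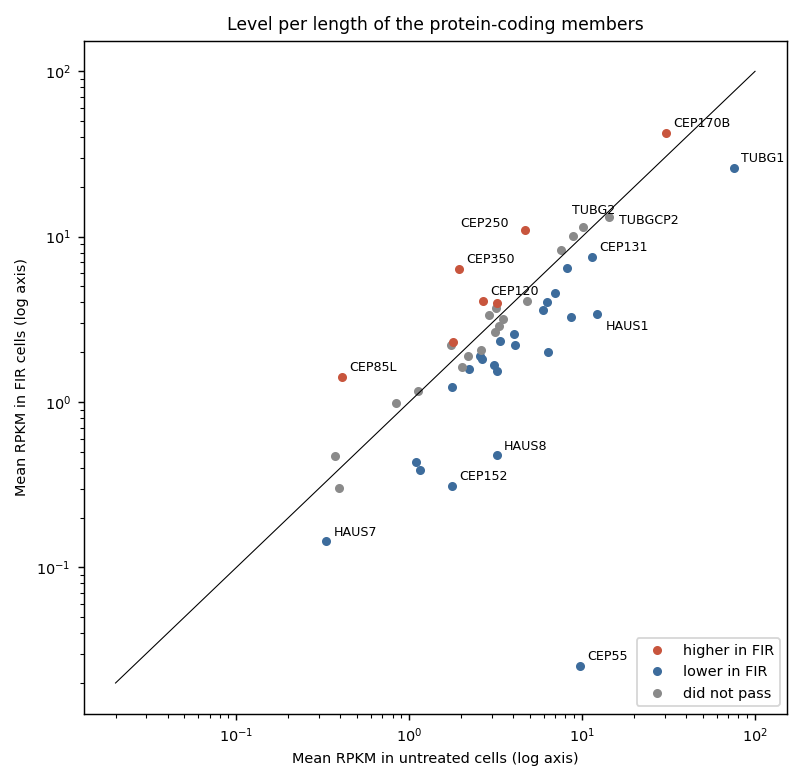
Mean RPKM of the 49 protein-coding members in FIR cells (y axis) against untreated cells (x axis), both on log axes, with the line of equal level. CEP55 lies far below the line, and CEP85L, CEP350 and CEP250 lie above it.

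Across the 49 protein-coding members, Spearman's rho between the length of the counted exons and the log2 fold change was 0.39, where it was 0.16 over 12440 protein-coding genes. With the level per length in untreated cells, rho was -0.19 over the members and -0.20 over all protein-coding genes. The untreated level is part of both measures there, so noise in it alone can make rho negative. These rho values are descriptions over genes of the same 6 libraries. Library by library, untreated replicate 3 was the lowest of the untreated libraries in 28 of 51 members and in 14 of the 24 that fell. The same library was lowest in 37.6% of all genes and in 51.0% of all genes called lower. Without it, 27 members fell and 10 rose.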

How the data were processed

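Per the file headers, the deposited table holds the authors' unnormalised counts for each gene in 6 libraries. It also holds the authors' log2 fold changes and adjusted p-values, read only for comparison. Tools named in the submitters' processing notes, without their roles, are STAR 2.5, bcl2fastq, Subread 1.6.2 with featureCounts, and edgeR 3.20.8, with build hg38. Annotation release, strand setting and low-count filter: not given in the sources used here. By the authors' deposited values, 24 members were lower and 7 higher, with the same call for all 51. A further 12 columns of log2 values per sample were not used.

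Counts were scaled by TMM and fitted over all 16311 genes with glmQLFit and glmQLFTest in edgeR 4.0.16 (R 4.3.3), with group as the only term. P-values were adjusted by Benjamini-Hochberg at 0.05. The filterByExpr rule (minimum count 10) left all genes in. The SE was taken as the log2 fold change over the square root of F. The fit was tested on simulated counts. Members and lists were chosen with earlier results of these data known. Named genes were all ring and augmin members, the 8 lowest and 5 highest called members averaging at least 5 CPM, and the 2 largest called changes per partner list among genes averaging at least 1 CPM, which leaves out DZIP1 (log2 fold change -2.03) from the appendage list; others were named by role after their values were seen. Exon overlaps and shared words used GENCODE 29. Replicate pairs differed by 4.82 to 14.9 times sampling noise (chi-square per degree of freedom), so none was counted as a repeat. Other settings tried were DESeq2 1.42.0, voom in limma 3.58.1, scaling by RLE, by the upper quartile or by library size, a filter of 1 CPM in 3 libraries or none, a replicate block, and leaving out each library. RPKM was computed from CPM and the deposited gene length. The values of 1 member, which did not pass, are not reported here, although the counts include it.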

Additional observations from a re-analysis of the deposited data

How the results depend on the processing

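In 14 alternatives the counts of members stayed within 1.5 times of 7 higher and 24 lower: 5 to 7 were higher and 23 to 27 lower over the scalings, tools, filters and the block, and 5 to 10 and 21 to 27 with 1 library left out. Library-size scaling gave 5 higher and 27 lower. Of 31 called members, 26 kept call and direction in every alternative, 5 (CEP68, CEP70, CEP83, CEP95 and HAUS7) lost the call in at least 1, and 0 reversed. Of 20 members that did not pass, 11 passed in at least 1 alternative. With 1 library left out, pericentriolar partners had 3 to 5 rises and abscission partners 3 to 5, against 6 each. With all 6 libraries the other settings gave 4 to 6 and 5 to 6. The cause was not tested. With the replicate block 24 members were lower and 7 higher. The check of pairing gave correlations of 0.03, -0.05 and -0.07 between libraries that share a number, and the labels do not say that a number marks a shared culture. Fitting without a filter used the same genes and is no test. Depth limits CEP55 and HAUS7, which had 4 and 27 reads over the FIR group.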
